A study of Homo sapiens with 6 samples.

Results

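The genes described here are 41 human genes of histone methylation and chromatin remodelling, taken by name from 8 roles and measured among the 19970 protein-coding genes that RefSeq places on chromosomes 1 to 22 and X. They comprise 9 genes listed with H3K4 methyltransferases, 4 with H3K36, 5 with H3K9, 2 with H3K27 and 1 with H3K79 methyltransferases, 9 demethylases, 9 SWI/SNF subunits and 2 CHD remodellers. The assay was chromatin immunoprecipitation with sequencing for lactylated lysine 5 of histone H4 (H4K5la) in PLC/PRF/5 cells, a line from a human hepatocellular carcinoma. One group of cells was given 20 mM lactate for 24 h and the other was the control, for which no vehicle is named. Each group had 2 libraries, replicates 2 and 3, with a list of enriched regions (peaks) for each library. Nothing in the labels says that the libraries of a group came from separate cultures, so the spread between them may be technical. An input library of each kind was not analysed here.

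Histone methyltransferases place methyl groups on particular lysines of the histone tails, and demethylases remove them. Methylation of H3K4 marks promoters and enhancers, that of H3K36 and H3K79 marks transcribed gene bodies, and that of H3K9 and H3K27 is known from silenced chromatin. SWI/SNF complexes and CHD proteins use ATP to move or eject nucleosomes, and several SWI/SNF subunits, ARID1A among them, are recurrently mutated in liver cancer. Lysine lactylation is a histone acylation derived from lactate. The peaks show where H4K5la was enriched over these genes and do not measure their expression.

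The lists held 37951 and 38402 peaks in the lactate libraries, against 52215 and 52959 in the control libraries. Their median peak widths were 448 and 437 bp in lactate, against 547 and 537 bp in control. Sequencing depth is not stated in the lists, so fewer peaks from less enrichment and fewer peaks from a shallower or noisier library cannot be told apart. Among hepatocyte markers, APOA1 and HNF4A had a peak in all 4 libraries, APOA2 had one in the control libraries only, and 6 of 12 had none. Enrichment lists of this kind do not test the identity of the cells.

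A member was scored as having a peak when a peak overlapped its RefSeq span, plus 5 kb on either side, by at least 1 bp. By that measure 25 and 21 of the 41 genes had a peak in the lactate libraries (61.0% and 51.2%), against 26 and 30 in the control libraries (63.4% and 73.2%). All coding genes stood at 41.8% and 42.3% in lactate, against 49.2% and 50.8% in control. The methylation and remodelling genes were long, with a median span of 101 kb against 24.2 kb for all coding genes, and longer windows can hold more peaks. Each was therefore set beside the 200 other coding genes nearest to it in span, in all 5513 different genes.

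A peak was present in all 4 libraries at 20 of the 41 genes (48.8%). The background for this call was 33.0% of all coding genes and 39.8% of the equal-length genes, which would place 16.3 members in that class. The 20 were KMT2A, KMT2B, KMT2D and SETD1A of the H3K4 methyltransferases, NSD1 and NSD2 of the H3K36 enzymes, EHMT1, EHMT2 and PRDM16 of the H3K9 group, DOT1L, the demethylases KDM2A, KDM2B and KDM4B, the SWI/SNF subunits ARID1A, ARID1B, SMARCA4, SMARCB1 and SMARCD3, and the remodellers CHD2 and CHD7. No peak in any library was found at 10 genes, against a background of 40.6% of all coding genes and 34.1% of equal-length genes, or 14.0 members at that share. A further 9 genes had peaks in some libraries without a treatment pattern. No test was made over a list chosen with these data known.

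The genes without a peak included widely studied enzymes of several marks. They were SETD7, an H3K4 monomethyltransferase, PRDM9, which methylates H3K4 at meiotic recombination sites, SETD2, which trimethylates H3K36, SUV39H2, an H3K9 methyltransferase, and EZH2, the main catalytic subunit of Polycomb repressive complex 2. The demethylases KDM1A (LSD1), KDM4A, KDM5A and KDM5B and PBRM1, the bromodomain subunit of the PBAF form of SWI/SNF, made up the rest. Peak lists hold only regions past a threshold, so these genes may carry H4K5la below it. The 9 genes with peaks in some libraries had at most 1 peak in the window in any library. They were KMT2C (MLL3), an enhancer H3K4 methyltransferase, its distant relative KMT2E, the H3K36 methyltransferase NSD3, SETDB1, which trimethylates H3K9, EZH1, the H3K9 demethylase KDM4C, and the SWI/SNF subunits ARID2, SMARCA2 and SMARCC1. EZH1, the paralogue of EZH2, had 1 peak in lactate replicate 3 and 1 in control replicate 3. At EZH1, KMT2C, KMT2E and SETDB1 all peaks lay in the 5 kb beside the gene, and no library had a peak over the gene span. Those of EZH1 lay over the neighbouring gene CNTNAP1 and those of SETDB1 over CERS2.

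Summed over the 41 windows, there were 249 and 255 peaks in the lactate libraries, against 350 and 362 in the control libraries, a ratio of 0.708 that lay beside 0.712 for all coding genes. The bases under those peaks came to 163 and 171 kb in lactate, against 360.2 and 375 kb in control. The means were 167 ± 5.94 kb in lactate and 367.6 ± 10.5 kb in control (SD, n = 2 each), a ratio of 0.454 against 0.515 over all coding genes. Both lactate values lay below both control values for peaks and for bases. With 2 libraries a group, the smallest p of the exact permutation test, taken two-sided, is 0.333, and no gene or sum described here could pass a threshold. When each library was held to its 37951 strongest peaks by −log10 p, the number of peaks in the windows was 249 and 251 in lactate, against 250 and 248 in control, while the bases under them were 163 and 170 kb in lactate, against 285 and 296 kb in control, a ratio of 0.572 beside 0.649 over all coding genes.

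**Figure D1:**
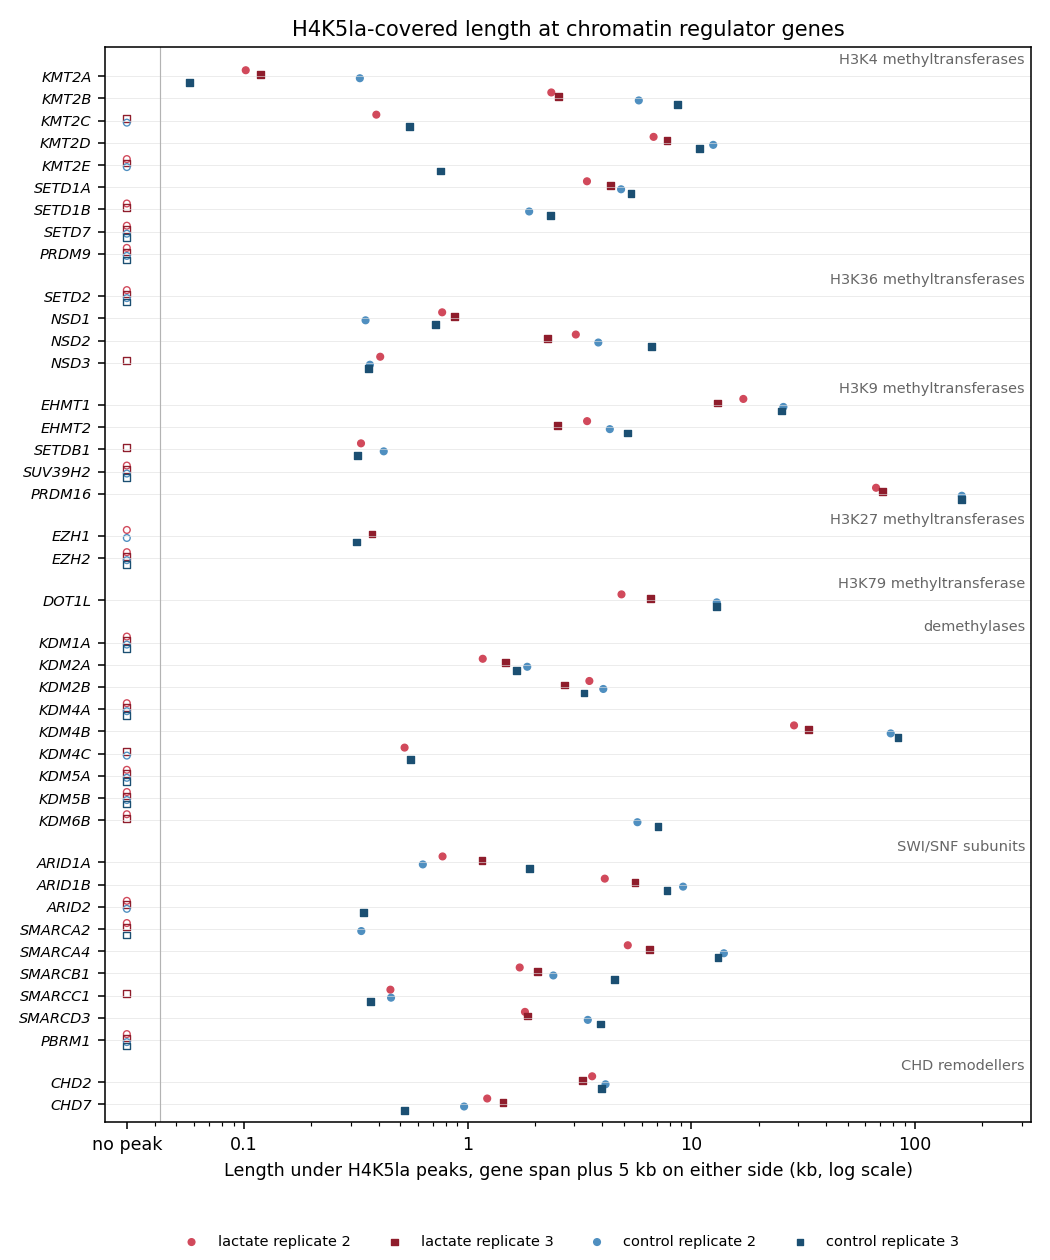
Kilobases covered by H4K5la peaks in the window of each of the 41 members (gene span plus 5 kb on either side, log axis), with lactate libraries in red, control libraries in blue, and open symbols at the left edge where a library had no peak. Genes are grouped by role, and each point is 1 library; PRDM16 and KDM4B stand above the other genes in all 4 libraries, both control points lie to the right of both lactate points at 17 genes, and KDM6B and SETD1B have no lactate peak.

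Gene by gene, 31 members had a peak in at least 1 library. At 17 of these the covered length was lower in both lactate libraries than in either control library, against a background of 55.1% of coding genes with a peak and 53.1% of those of equal length. At 2 members, NSD1 and CHD7, it was higher in both, with backgrounds of 5.72% of coding genes with a peak and 6.05% of those of equal length, and at 12 the groups overlapped. Over the 20 members with a peak in all 4 libraries the lactate over control ratio had a median of 0.581 and ran between 0.338 and 1.79, beside a median of 0.599 for coding genes with peaks in all 4. At an equal number of peaks, 10 members were lower and 3 higher in both lactate libraries out of 28 with a peak, against backgrounds of 38.6% and 12.7%. Of the 17 genes lower in lactate, 10 were lower at an equal number of peaks too, and at 7 the groups then overlapped, SETD1A, NSD2, DOT1L, KDM2A, ARID1B, SMARCA4 and SMARCB1. The 3 that were higher then were NSD1, CHD7 and KDM2B.

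A few genes held most of the covered length. PRDM16 made up 41.1% and 41.7% of it in lactate, against 44.9% and 43.1% in control. PRDM16, KDM4B and EHMT1 together made up 69.3% and 68.8% in lactate, against 73.7% and 72.2% in control. The sums above therefore describe these 3 genes first. Without them, a choice made after their values were seen, the other 38 genes held 81 and 90 peaks in lactate, against 124 and 137 in control, and 49.98 and 53.5 kb in lactate, against 94.9 and 104 kb in control. The ratios were then 0.655 for peaks and 0.520 for covered length.

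PRDM16 encodes a zinc-finger and PR-domain protein with reported H3K9 methyltransferase activity that directs brown fat and stem cell programmes. Its span, chr1:3069203-3438621, carried the most peaks and the greatest covered length of the 41 genes in all 4 libraries. There were 103 and 98 peaks in lactate, against 130 and 131 in control. They covered 66.9 and 71.3 kb in lactate, against 162 kb in each control library. In shares of the window this was 17.6% and 18.8% in lactate, against 42.6% in each control library. The gene stood above 99.5% of equal-length genes in lactate and above all 200 of them in control.

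The PRDM16 peaks ran along most of the gene. No library had a peak in the 7904 bp at its lower-coordinate end, and from the first peak on the longest stretch free of peaks in all 4 libraries was 5979 bp. The median peak was 488 and 576 bp wide in lactate, against 925 and 900 bp in control, and the widest was 2987 and 2996 bp in lactate, against 4994 and 4820 bp in control. Merging the peaks of the 4 libraries gave 135 regions, of which 60 had a peak in every library, 23 in both control libraries alone, and none in both lactate libraries alone. Of the bases under peaks in both lactate libraries 87.2% were also under peaks in both control libraries, and 0.907% were under no control peak. In the other direction, 41.2% of the bases under both control libraries were under no lactate peak. PRDM16 lay 3.07 Mb from the outermost RefSeq gene at the nearer end of its chromosome and had 8 coding genes within 500 kb.

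KDM4B, a demethylase of H3K9 and H3K36, at chr19:4969113-5153598, came next. It held 42 and 43 peaks in lactate, against 65 and 64 in control, and 28.8 and 33.3 kb of covered length in lactate, against 77.8 and 83.9 kb in control. The ratio of 0.384 was below that of PRDM16, 0.428. Its widest peak measured 2655 and 2664 bp in lactate, against 5100 and 4873 bp in control. KDM4B ranked above all 200 equal-length genes in both groups.

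EHMT1 encodes GLP, which with its partner EHMT2 (G9a) makes mono- and dimethylated H3K9. EHMT1, at chr9:137619005-137836127, held 23 and 24 peaks in lactate, against 31 and 30 in control. These covered 17.1 and 13.1 kb in lactate, against 25.8 and 25.2 kb in control. EHMT2, a compact gene of 17.9 kb on chromosome 6 with 61 coding genes within 500 kb, held 3.42 and 2.53 kb in lactate, against 4.32 and 5.19 kb in control. At both partners the groups did not overlap. EHMT1 was 0.496 Mb from such an outermost gene.

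**Figure D2:**
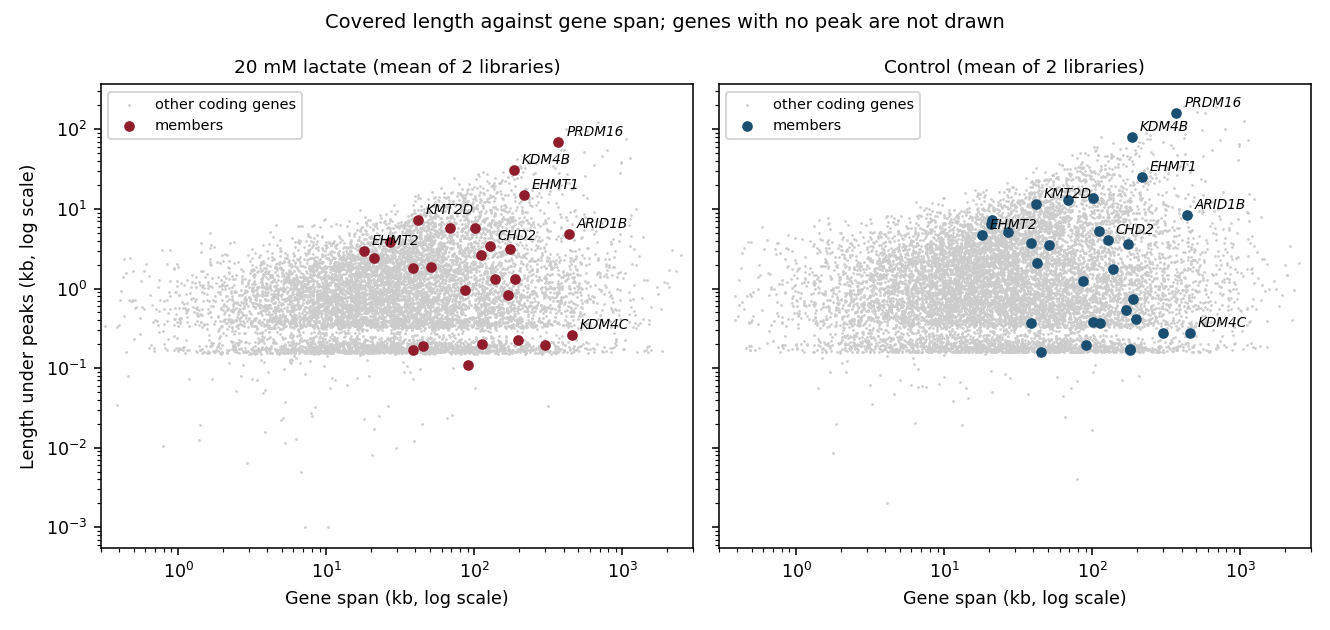
Gene span in kilobases (horizontal, log axis) against the length under peaks in kilobases (vertical, log axis), averaged over the 2 libraries of a group, with the lactate panel left of the control panel, members in colour, other coding genes in grey and genes without a peak left out. PRDM16, at a mean of 69.1 kb in lactate and 162 kb in control, lies above the longer members ARID1B and KDM4C.

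Among the H3K4 methyltransferases, KMT2D, an enhancer monomethyltransferase, had the greatest covered length. It held 6.78 and 7.79 kb in lactate, against 12.5 and 10.9 kb in control. KMT2B, which trimethylates H3K4 at promoters, held 2.37 and 2.54 kb in lactate, against 5.82 and 8.68 kb in control, and its ratio of 0.338 was the lowest of the 20 genes with peaks throughout. That ratio was 0.572 at an equal number of peaks and 0.163 over the gene span alone. At KMT2B there were 4 and 5 peaks in lactate, against 9 and 12 in control, and 4 of its 12 merged regions had peaks in the control libraries alone. SETD1A, a catalytic subunit of a COMPASS complex, held 3.42 and 4.36 kb in lactate, against 4.85 and 5.38 kb in control. In these 3 genes the groups did not overlap. At SETD1A they did at an equal number of peaks, with 3.42 and 4.36 kb in lactate, against 4.24 and 3.82 kb in control. They also did over the gene span alone, with 2577 and 3069 bp in lactate, against 2108 and 2897 bp in control, a ratio of 1.13.

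For peaks as called, SETD1A was the 1 member with a peak of at least 2 kb in both lactate libraries and in no control library. With peaks within 1 kb joined, SETD1A had a peak of at least 2 kb in both control libraries too. The contrast thus holds only for peaks as called, and the share of coding genes with this pattern was not counted. The wide lactate peaks lay in the region chr16:30963968-30967080. There the peaks numbered 2 and 1 in lactate, against 2 in each control library, and the widest was 2213 and 2322 bp in lactate, against 1489 and 1134 bp in control. Beyond the end of the gene, some other peaks of its window lay over HSD3B7. KMT2A (MLL1) counted as having a peak in all 4 libraries through the edge of its window in 3 of them. The covered length there was 0.102 and 0.119 kb in lactate, against 0.330 and 0.057 kb in control, the peaks of both lactate libraries and of control replicate 3 lay over the neighbouring gene TMEM25, and KMT2A had no such call over its own span alone.

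DOT1L, the H3K79 methyltransferase, at chr19:2163933-2232578, held 4.87 and 6.59 kb in lactate, against 12.99 and 12.9 kb in control. SMARCA4 (BRG1), an ATPase of SWI/SNF, held 5.20 and 6.48 kb in lactate, against 14.0 and 13.2 kb in control. At both genes the control libraries had wide peaks that the lactate libraries lacked. The widest SMARCA4 peak was 762 and 866 bp in lactate, against 2624 and 2877 bp in control. The widest DOT1L peak was 1536 and 1773 bp in lactate, against 3483 and 3860 bp in control. At an equal number of peaks it was 1536 and 1773 bp in lactate, against 1029 and 3860 bp in control. The widest SMARCA4 peaks were then unchanged. At an equal number of peaks both genes overlapped between groups: DOT1L held 4.87 and 6.15 kb in lactate, against 5.06 and 8.25 kb in control, and SMARCA4 held 5.20 and 6.48 kb in lactate, against 7.79 and 5.96 kb in control.

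Other SWI/SNF subunits spread over a wide range. ARID1B, a DNA-binding BAF subunit whose gene spans 434.8 kb, held 4.10 and 5.60 kb in lactate, against 9.19 and 7.80 kb in control. Its paralogue ARID1A held 0.773 and 1.16 kb in lactate, against 0.631 and 1.89 kb in control, and here the groups overlapped. They overlapped at ARID1B too at an equal number of peaks, with 4.10 and 5.60 kb in lactate, against 8.54 and 5.42 kb in control. SMARCB1, a core subunit, held 1.71 and 2.06 kb in lactate, against 2.42 and 4.54 kb in control, and at an equal number of peaks 1.71 and 2.06 kb in lactate, against 1.74 and 2.59 kb in control, where the groups overlapped. SMARCD3, an alternative BAF60 subunit, held 1.81 and 1.85 kb in lactate, against 3.45 and 3.92 kb in control, a ratio of 0.496 that was 0.221 over the gene span alone. SMARCA2 (BRM), the alternative ATPase to SMARCA4, had no lactate peak and 1 peak, in control replicate 2. ARID2, the PBAF counterpart of ARID1A, had 1 peak, in control replicate 3.

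NSD2, an H3K36 dimethyltransferase, held 3.05 and 2.28 kb in lactate, against 3.84 and 6.64 kb in control. KDM2A, a demethylase of H3K36 that binds unmethylated CpG islands, held 1.17 and 1.47 kb in lactate, against 1.85 and 1.66 kb in control. Its relative KDM2B, which brings a Polycomb complex to such islands, held 3.50 and 2.71 kb in lactate, against 4.04 and 3.31 kb in control. The groups overlapped at KDM2B and did not at NSD2 and KDM2A. At an equal number of peaks these calls changed. NSD2 then held 3.05 and 2.28 kb in lactate, against 1.69 and 3.78 kb in control, and KDM2A 1.17 and 1.47 kb in lactate, against 1.23 and 1.66 kb in control, so that the groups overlapped at both. KDM2B was then higher in both lactate libraries, with 3.50 and 2.71 kb in lactate, against 2.57 and 0.975 kb in control.

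The demethylase KDM6B (JMJD3), which removes H3K27 methylation, was 1 of 2 members whose peaks lay in both control lists and in no lactate list. The background for this was 5.77% of all coding genes and 4.65% of equal-length genes, and for the reverse pattern, which no member had, 1.11% and 1.18%. KDM6B, at chr17:7834217-7854796, had no peak in either lactate library, against 5.74 and 7.10 kb under 4 peaks in each control library. In control these fell in 4 regions, 2 of them wide, with peaks of 2463 and 2396 bp and of 2353 and 3219 bp. A coding gene annotated within the KDM6B span, LOC124904106, was overlapped by 2 peaks of each control library. At an equal number of peaks KDM6B still had control peaks, with 0.435 and 6.13 kb covered, and none in lactate.

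SETD1B, the paralogue of SETD1A, was the other such gene. SETD1B had no peak in the lactate libraries, against 3 and 4 peaks covering 1.89 and 2.35 kb in the control libraries. One of its 3 regions shared by the control libraries lay where its span meets that of RHOF. With 10 kb in place of 5 kb on either side, KDM6B and SETD1B both left the class, which then had 0 members.

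CHD7 and NSD1 ran the other way, with small values. CHD7, a remodeller mutated in CHARGE syndrome, held 1.22 and 1.44 kb in lactate, against 0.965 and 0.522 kb in control, a ratio of 1.79. The highest fold enrichment of its peaks, the authors' own value for each peak, was 15.9 and 18.6 in lactate, against 9.47 and 11.6 in control. NSD1, an H3K36 methyltransferase, held 770 and 876 bp in lactate, against 350 and 721 bp in control, a ratio of 1.54 that was 4.11 at an equal number of peaks, where control replicate 2 had none. All its lactate peaks, 2 in each library, lay at the pseudogene PRMT1P1, chr5:177265365-177266638, which sits within the span of NSD1. Reads from such a copy and from its parent gene may be shared, and this was not tested.

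CHD2, another ATP-dependent remodeller, had the third highest ratio among the genes with peaks in all 4 libraries, after CHD7 and NSD1. A single region, chr15:93027459-93031421, crossed the end of the gene at position 93027996 and held nearly all of its covered length. The widest peak there was 3604 and 2850 bp in lactate, against 3779 and 3963 bp in control. Its best fold enrichment was 18.2 and 22.0 in lactate, against 14.4 and 14.0 in control, which placed it in the top 0.514% and 0.102% of the lactate lists, against the top 1.14% and 3.03% of the control lists. The ratio of covered length for CHD2 was 0.847. Over the gene span alone it held 490 and 402 bp in lactate, against 846 and 538 bp in control, a ratio of 0.645 that was below the 0.845 of KDM2B, so its rank rests on bases beyond the gene end. Only this region and one of PRDM16, chr1:3118360-3123069, had a peak of at least 2 kb in all 4 libraries.

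Wide peaks were found at several of these genes. A peak of at least 2 kb was present in both control libraries at 8 members, KMT2D, EHMT1, PRDM16, DOT1L, KDM4B, KDM6B, SMARCA4 and CHD2, which is 19.5% of them. The background was 5.15% of all coding genes and 6.55% of equal-length genes, or 2.69 members. In both lactate libraries 4 members had such a peak, SETD1A, PRDM16, KDM4B and CHD2, where the backgrounds were 0.516% and 0.817%. Of the peaks in member windows, 2.01% and 2.35% were at least 2 kb wide in lactate, against 10.9% and 12.4% in control, and in the whole lists 0.835% and 0.760% in lactate, against 5.03% and 4.95% in control. The median peak in a member window was 503 and 531 bp wide in lactate, against 746.5 and 715 bp in control. PRDM16, KDM4B and EHMT1 weigh on these pooled values. In the other 38 members 2.47% and 2.22% of peaks were at least 2 kb wide in lactate, against 4.84% and 4.38% in control. Those control shares were below the shares of the whole lists, and the lactate shares were above them. The medians there were 483 and 492 bp in lactate, against 619.5 and 514 bp in control.

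**Figure D3:**
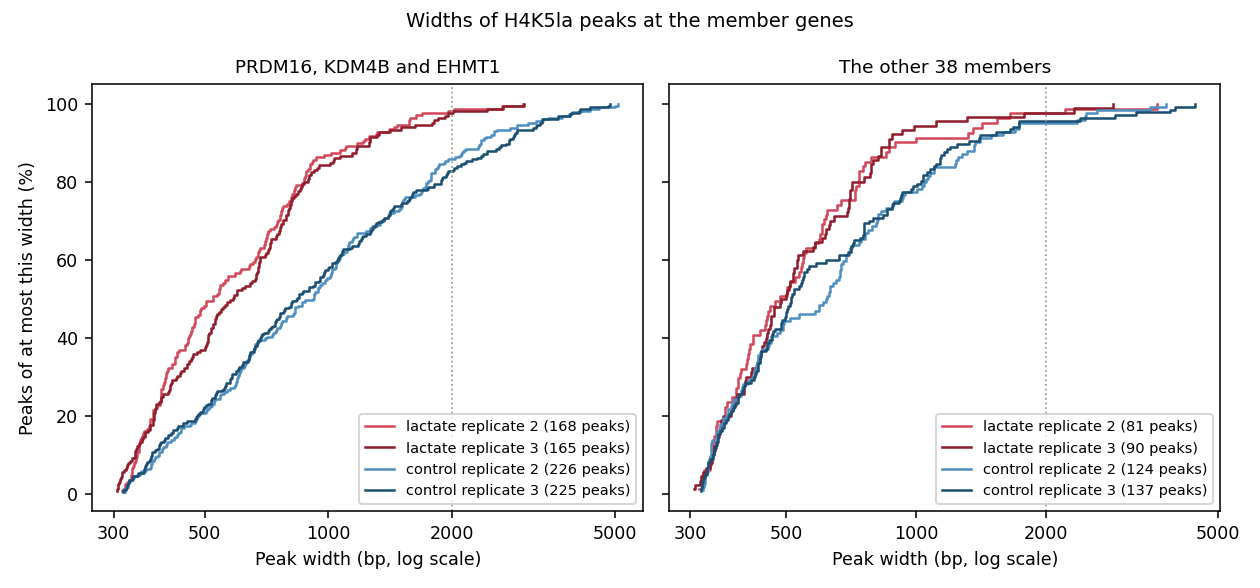
Percent of peaks (vertical) at or under a given width in bp (horizontal, log axis), 1 line per library with lactate in red and control in blue, for PRDM16, KDM4B and EHMT1 in the left panel and the other 38 members in the right, with a dotted line at 2 kb. The control lines lie to the right of the lactate lines in the left panel, and less so in the right, where medians are 483 and 492 bp in lactate against 619.5 and 514 bp in control. The left panel pools its genes, and at EHMT1 alone the medians overlap, at 645 and 445 bp in lactate against 607 and 600.5 bp in control.

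The wide control regions mostly kept some signal in the lactate libraries. Merging peaks across libraries gave 412 regions in the member windows, of which 145 (35.2%) had a peak in all 4 libraries, 73 (17.7%) in both control libraries alone and 6 (1.46%) in both lactate libraries alone. Over all coding genes the shares were 29.6%, 15.0% and 2.67% of 49840 regions. Of 31 regions with a peak of at least 2 kb in both control libraries, 25 (80.6%) had a peak in both lactate libraries, against 92.3% of 1515 such regions over all coding genes. In these 31 regions there were on average 1.52 peaks in a lactate library, against 1.19 in a control library. Over all coding genes such regions had 1.84 in lactate, against 1.19 in control. The median widest peak was 804.5 bp in lactate, against 2892 bp in control. Over all coding genes it was 1040 bp in lactate, against 2987 bp in control. The regions were chosen by their control width, so a control width of at least 2 kb was set by that choice. The 6 that were not held lay in KDM6B, PRDM16 and KDM4B, 2 in each.

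The lactate bases lay largely within the control bases. Peaks of both lactate libraries shared 108 kb over the 41 windows, and those of both control libraries shared 290.6 kb. Of the shared lactate bases 82.0% lay under peaks of both control libraries and 3.83% under none. Of the shared control bases 30.6% lay under peaks of both lactate libraries and 43.3% under none. Within a group, lactate replicate 2 had 66.7% of its bases in replicate 3, and control replicate 2 had 80.7% of its bases in replicate 3, so the lactate libraries overlapped each other less as well.

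**Figure D4:**
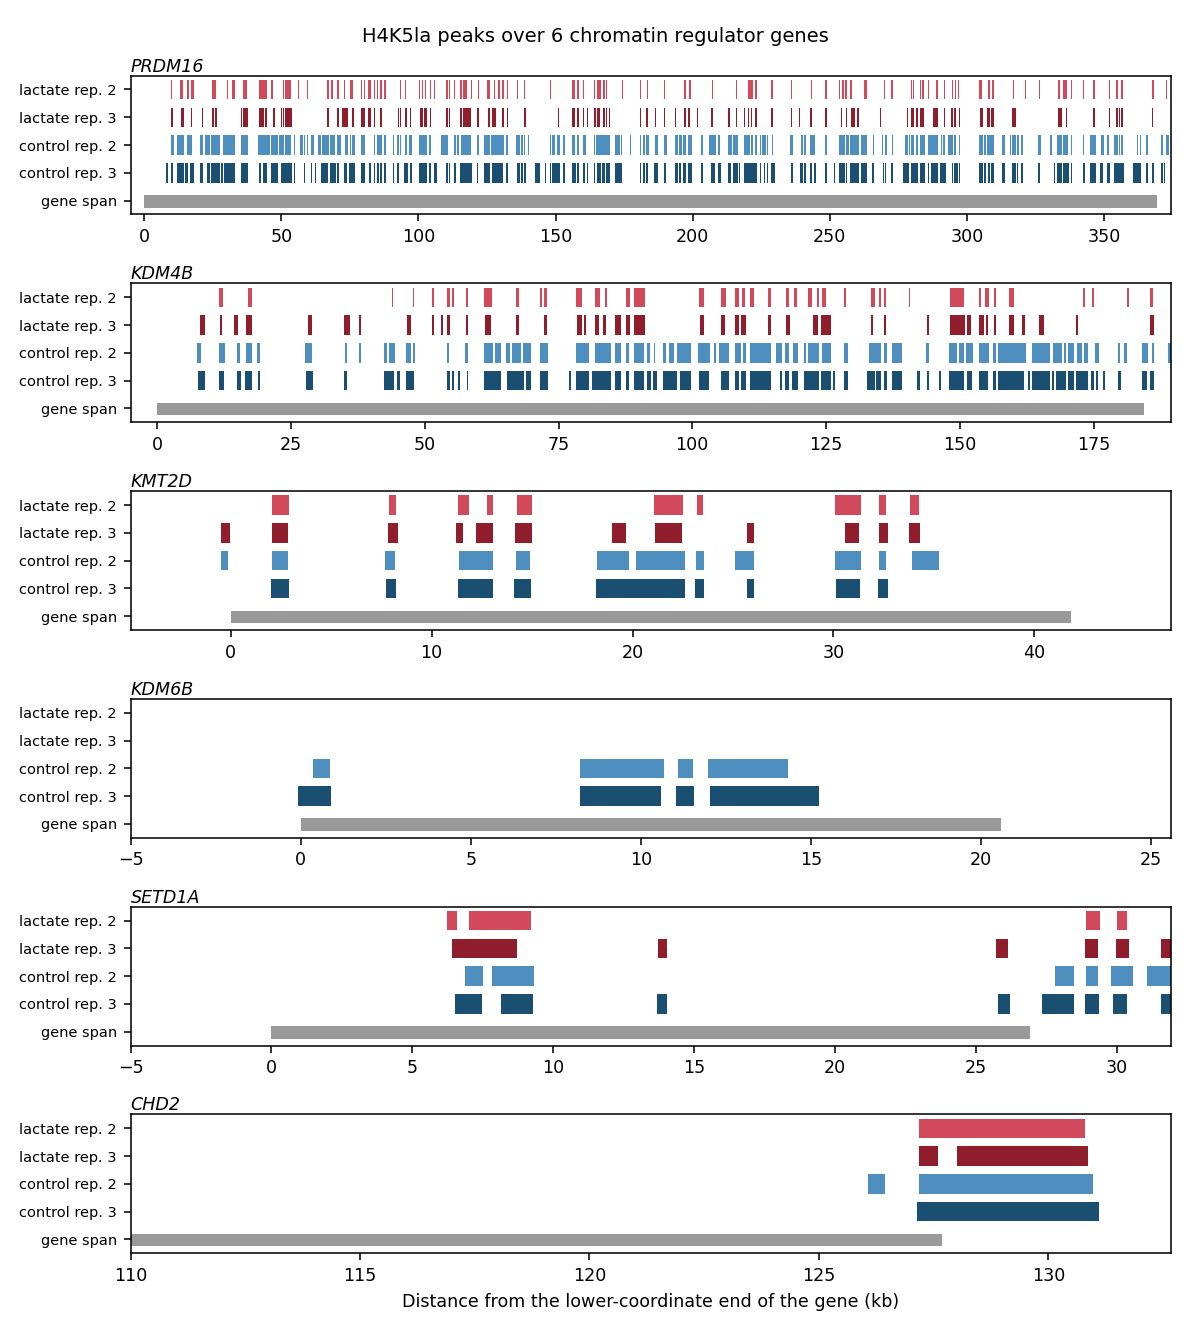
Positions of peaks along PRDM16, KDM4B, KMT2D, KDM6B, SETD1A and CHD2 in kilobases from the lower coordinate of each gene, with 1 row per library, lactate rows above control rows, and the gene span drawn beneath. PRDM16 and KDM4B show many short lactate peaks inside longer control peaks, KDM6B has control peaks alone, and the CHD2 panel, drawn for the last stretch of the gene only, shows the region at the gene end in every row.

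Few of these genes had a peak at a start site. RefSeq start sites with a strand were at hand for 34 of the 41 genes, with 53 starts, and a peak within 1 kb of a start was present in all 4 libraries at 1 gene, SMARCA4. The background was 6.02% of 15811 coding genes with a listed start. In at least 1 library there were 3 such genes, KDM6B in both control libraries, KMT2E in control replicate 3 and SMARCA4, which is 8.82% against 23.6% of coding genes. A peak within 1 kb of the 3′ end was present in all 4 libraries at 5 genes, CHD2, EHMT2, KDM4B, KMT2B and SMARCD3, which is 14.7% against a background of 6.19%. Another coding gene lay within 1 kb of that end at SMARCD3 (CHPF2), EHMT2 (SLC44A4) and KMT2B (IGFLR1).

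The SMARCA4 peaks were not at the first start of the gene but at an internal start 23094 bp downstream. They were 509 and 646 bp wide in lactate, against 461 and 488 bp in control, and by fold they stood 87.3% and 76.0% of the way down the lactate lists, against 75.5% and 95.0% down the control lists. The peak was not left in all 4 libraries at a −log10 q of at least 5 or at an equal number of peaks, where the class had 0 genes. With 3 kb on either side of a start the class held 3 genes, KMT2B, SMARCA4 and SMARCD3.

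The upstream sequences show what those start sites are made of. The 250 bases before a start are printed 5′ to 3′ from RefSeq (GRCh38.p14), with the dinucleotide CG in capitals. KDM6B is shown because it had a control peak at its first start, of 492 and 971 bp, and SMARCA4 for its first and internal starts, of which only the internal one had peaks. EZH2 is shown as a first start with no peak in its gene. They lie at chr17:7833967-7834216 (plus strand), chr19:10960780-10961029 (plus), chr19:10983874-10984123 (plus) and chr7:148884292-148884541 (minus).
KDM6B: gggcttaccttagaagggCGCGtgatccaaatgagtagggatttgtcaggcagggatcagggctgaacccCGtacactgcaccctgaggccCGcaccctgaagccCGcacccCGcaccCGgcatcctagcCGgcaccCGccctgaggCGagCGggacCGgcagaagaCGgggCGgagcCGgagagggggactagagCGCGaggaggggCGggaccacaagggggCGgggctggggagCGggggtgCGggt
SMARCA4 first start: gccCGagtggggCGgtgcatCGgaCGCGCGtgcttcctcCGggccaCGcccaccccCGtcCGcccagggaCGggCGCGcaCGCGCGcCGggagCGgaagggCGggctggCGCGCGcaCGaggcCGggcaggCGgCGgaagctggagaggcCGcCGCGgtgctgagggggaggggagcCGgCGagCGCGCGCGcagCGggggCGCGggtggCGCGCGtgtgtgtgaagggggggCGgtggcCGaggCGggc
SMARCA4 internal start: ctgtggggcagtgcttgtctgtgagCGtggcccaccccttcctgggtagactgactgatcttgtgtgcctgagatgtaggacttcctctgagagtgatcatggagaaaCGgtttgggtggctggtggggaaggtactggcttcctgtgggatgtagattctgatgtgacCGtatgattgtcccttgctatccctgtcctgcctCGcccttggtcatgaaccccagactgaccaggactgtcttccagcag
EZH2: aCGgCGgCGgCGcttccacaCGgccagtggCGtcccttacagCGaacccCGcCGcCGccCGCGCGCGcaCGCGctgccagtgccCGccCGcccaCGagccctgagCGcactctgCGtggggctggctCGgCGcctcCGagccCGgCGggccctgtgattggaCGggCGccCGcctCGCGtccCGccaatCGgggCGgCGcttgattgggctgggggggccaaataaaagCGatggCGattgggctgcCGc
The letters held 21 CG at KDM6B, 44 at the first start of SMARCA4, 4 at its internal start and 38 at EZH2. Of the KDM6B bases 89 lay under the peak of control replicate 3, and of those at the internal SMARCA4 start 77 lay under the peak of lactate replicate 3.

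Counted on either strand, CG reads the same. The first-listed promoters of the 34 genes had a median of 23 CG, with a range of 0 to 50, and 88.2% had at least 10, against a median of 11 and 52.2% over all 35116 listed promoters. Each member counts once here, while the background counts every listed promoter of a gene, so the measures are not alike. All 10 genes without any peak had at least 10 CG at the first-listed promoter, with a median of 22 and a lowest count of 12. The 17 genes with peaks in all 4 libraries and a listed start had a median of 23 and a lowest count of 0. Of these, 14 (82.4%) had at least 10 CG. By this count the promoters of genes with peaks throughout and of genes with none were alike in median, while the lowest counts differed. At ARID1B and NSD1 the first-listed start had 5 and 7 CG, while another listed start had 37 and 41. Low counts at these genes thus depend on which start is listed first, and the sets compared differ in size.

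**Figure D5:**
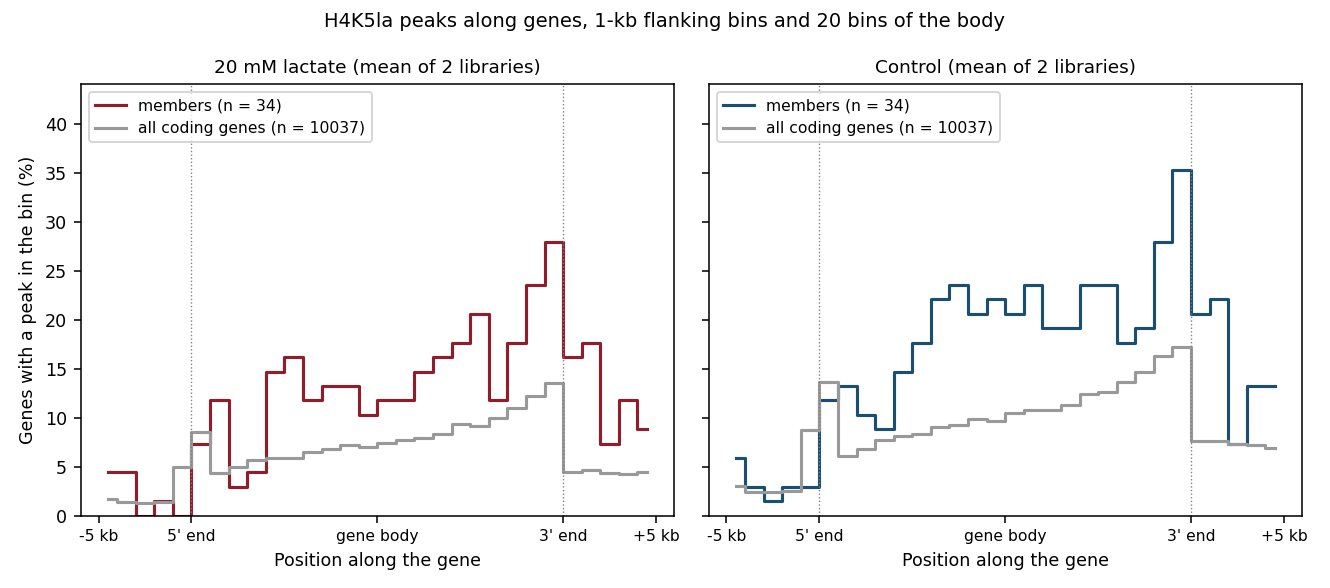
Percent of genes with a peak in each bin along the gene, lactate panel left of control panel, with 5 bins of 1 kb before the first start, 20 equal bins over the gene and 5 bins of 1 kb after the end, for the 34 members with a listed start and for 10037 coding genes of at least 15 kb. Lines are means of 2 libraries. In the last bin of the gene body members stand at 27.9% in lactate and 35.3% in control. In the 1 kb before the start they stand at 0% in lactate and 2.94% in control, the latter from control replicate 3 alone.

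Toward the end of the gene a peak was more often present. In the last bin of the body the mean share of genes with a peak over 2 libraries was 27.9% in lactate, against 35.3% in control. For all coding genes of at least 15 kb it was 13.5% in lactate, against 17.2% in control. In the 1 kb before the start the share was 0% in both lactate libraries and in control replicate 2, and 5.88% in control replicate 3. All such coding genes stood there at a mean of 5.00% in lactate, against 8.71% in control. The members were longer than these genes, and the bins of a long gene are wider, so the shares within the body are not matched for length.

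Coverage was also set beside position along the chromosome. Across the 41 genes, Spearman's rho between the number of coding genes within 500 kb and the percent of the window covered was 0.37 in lactate, against 0.44 in control, where all 19970 coding genes gave 0.21 in lactate and 0.28 in control. With the distance to the outermost gene at the nearer chromosome end rho was −0.21 in lactate, against −0.26 in control, and over all coding genes −0.23 in lactate and −0.26 in control. The points share libraries and some share a chromosome arm, so these are descriptions. The genes with peaks in all 4 libraries had a median of 22.5 coding genes within 500 kb, against 12 for the genes with none. KDM5A, at 0.268 Mb from the outermost gene, had no peak, while EHMT1, at 0.496 Mb, held the third greatest covered length.

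The other genes of these pathways were looked at as a list of 61, all matched in RefSeq, chosen by function. They were set beside all coding genes only, not beside genes of equal length, and longer windows can hold more peaks. A peak was present in all 4 libraries at 24 (39.3%, beside 33.0% of all coding genes), in none at 17 (27.9%, beside 40.6%), and in the control libraries alone at 7 (11.5%, beside 5.77%), ASH2L, RBBP4, KMT5B, KDM3B, KDM5C, KDM7A and ACTL6B. Of 44 with a peak the covered length was lower in both lactate libraries at 25 (56.8%, beside 55.1% of coding genes with a peak) and higher at 1 (2.27%, beside 5.72%). CHD5, a remodeller and reported tumour suppressor on chromosome 1, held the most with 13.6 and 12.2 kb in lactate, against 30.1 and 29.7 kb in control. Its widest peak was 2385 and 2044 bp in lactate, against 7732 and 6257 bp in control, so CHD5 was the 1 gene of this list with a peak of at least 2 kb in both lactate libraries.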

How the data were processed

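H4K5la ChIP-seq of PLC/PRF/5 cells was taken from 4 deposited narrowPeak lists, 1 for each library, on hg38. The submitters' processing notes list MACS2 2.2.6, Bowtie2 2.3.4.2 and Trimmomatic 0.38, with no settings; whether the input served as background is not given in the sources used here. For each peak the deposited columns hold a score, a fold enrichment (a ratio made by the authors with the peak caller) and −log10 of p and of q, as deposited. The lowest −log10 q was 2.00 to 2.02. No read counts or depths were at hand, so no interval is given.

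Peaks were overlapped by at least 1 bp with RefSeq gene spans (GRCh38.p14) widened by 5 kb. Gene spans carried no exons, so exon and intron are not assigned. Covered length counts bases within the window. Python 3.11.15, pandas 2.3.3, numpy 2.4.6 and scipy 1.17.1 were used, and the overlap code was tested on simulated peaks. Equal-length genes were the 200 nearest in span, members left out.

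The members and lists were chosen with earlier results of these data known. Members named with the values of every library were the 8 with the greatest covered length, those with peaks in one treatment alone, those with a peak at the 5′ end in all 4 libraries, and the 3 with the highest ratio among those with a peak in all 4. Genes with no peak were named only. Others named by value were chosen after their values were seen. The only test was the exact permutation test over 6 assignments of the 4 libraries. Alternatives covered a stricter q, equal peak numbers, other windows, a 50% overlap, joined peaks, each library left out and a block by replicate number.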

Additional observations from a re-analysis of the deposited data

How the results depend on the processing

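Of 68 alternatives over 8 results, 58 gave a count within 1.5 times, or a ratio within the spread between libraries, 9 moved it further and 1 reversed its direction. Members with wide control peaks, 8, were 6 at a −log10 q of at least 5, 6 at equal peak numbers and 12 with peaks within 1 kb joined. Members with peaks in all 4 libraries, 20, were 17 under the first of these settings and the second, 19 over the gene span alone and 23 with 10 kb on either side. With 37951 peaks in every library the ratio of peaks, lactate over control, was 1.004 in place of 0.708, because the setting makes the peak numbers equal, and the ratio of covered length was 0.572 in place of 0.454. Without PRDM16, KDM4B and EHMT1, a choice made after seeing the data, the ratios were 0.655 and 0.520. The count of members with a 5′-end peak in all 4 libraries, 1, was 0 at a −log10 q of at least 5, 0 at equal peak numbers and 3 with 3 kb on either side. Members with control peaks alone, 2, became 0 with 10 kb on either side. Leaving out 1 library gave 2 to 5 such members, 4 without control replicate 2 (KMT2E, SETD1B, KDM6B and ARID2) and 5 without lactate replicate 2 (SETD1B, NSD3, SETDB1, KDM6B and SMARCC1). It gave 0.443 to 0.466 for covered length and 0.696 to 0.720 for peaks. It gave 20 to 23 members with peaks in every library left and 1 with a 5′-end peak in every library left. Wide control peaks were at 8 members in each case, and lactate peaks alone at 0. With a library left out less is asked of a gene, so these counts of members can only stay or rise. The count with wide control peaks cannot change when a lactate library is left out, so its place among the 58 shows nothing there.

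With the replicate number as a block the ratios were 0.454 and 0.708, as the geometric mean of the ratios of same-numbered libraries. That mean is the same whichever lactate library is set beside whichever control library. It therefore cannot test a pairing, and its place among the 58 shows nothing. Same-numbered libraries share only a number, and their deviations correlated at −0.10 over 31 members. The 2 libraries a group, and a peak threshold in place of read counts, limit what can be seen of weak or narrow enrichment.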
